A study of Homo sapiens with 24 samples.

Results

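The 41 genes described here copy the DNA of a cell and open its S phase. They were chosen by symbol, as the loaders and subunits of the replicative helicase, the polymerases with their sliding clamp, the enzymes that join the lagging strand, the suppliers of nucleotides and the cyclins of the G1/S step, and not by a limit on any measured value. All 41 were found among the 34229 gene symbols in the expression tables, and all 41 were tested in every comparison.

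RNA was sequenced from cultures of 2 established human glioma lines, 1321N1 (labelled grade II) and LN18 (labelled grade IV), after 24 h. In each line, 3 libraries came from controls, 3 from cells given EGCG (epigallocatechin-3-gallate, the main catechin of green tea), 3 from cells given HC (hydroxychavicol, a phenol of betel leaf) and 3 from cells given both (EGCG+HC), 24 libraries in all. Cells of either line received EGCG at 50 µg/ml, alone or in the pair. The HC dose was 20 µg/ml for 1321N1 but 10 µg/ml for LN18. Line and HC dose therefore cannot be told apart for HC and for EGCG+HC, and each line is a single cell population. By the paper's methods, the medium of LN18 also held less foetal bovine serum than that of 1321N1. Line and serum therefore cannot be told apart in any comparison between the lines. The methods describe a vehicle control with ethanol, the solvent of HC, and the labels call the 3 libraries of a treatment independent tests. If they share a culture, p-values measure only the spread between these libraries, which may be technical.

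Before a cell divides, the origin recognition complex (ORC), CDC6 and CDT1 load rings of MCM2 to MCM7 onto DNA in G1 phase, a step called licensing. At the start of S phase CDC45 and the GINS complex bind these rings and turn them into the moving helicase, and the polymerases follow with the clamp PCNA. Many of these genes are transcribed late in G1 phase by E2F factors, which the retinoblastoma protein and its relatives hold back until cyclin E and its kinase release them. In tumour cell lines the genes are therefore high in dividing cultures.

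The libraries of a group lay close together for these genes, with a coefficient of variation over 3 libraries of 0.183 to 15.9% (median 3.54%, 328 groups of 3 values). Depth, recovered from the steps between low values, was 13700000 to 32400000 counted reads in 22 libraries and could not be settled for 1321N1 EGCG libraries 2 and 3. These stood apart in another way, since 263 genes were at 0 in both and above 1 RPKM in 1321N1 EGCG library 1, against at most 5 for any other library, but no gene described here was among the 263. Of the glial markers VIM and CD44 had 982 and 54.2 RPKM in 1321N1 controls and 268 and 147 in LN18 controls. NES was at 1.31 RPKM in 1321N1 controls and 1.21 with EGCG, and below 1 RPKM in every other group. GFAP and ALDH1L1 were below 0.3 RPKM in every group. Summed over 4 genes each, neuronal markers reached at most 2.94 RPKM and epithelial markers at most 2.87 RPKM in any library, and of the blood markers CD68 alone was above 1 RPKM.

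The promoters of 6 genes, picked because their levels carry the results below, are printed, with the letters of an E2F-type site in capitals where there was one. FEN1 and PCNA went opposite ways in the lines, CDT1 and ORC1 rose in LN18, and MCM6 and POLE fell in both lines. Each is the 250 bases before the first start listed in RefSeq, on GRCh38.p14 and on the strand of the gene. They lie at chr11:61792661-61792910 (plus strand), chr20:5126623-5126872 (minus), chr16:88803539-88803788 (plus), chr1:52404424-52404673 (minus), chr2:135876444-135876693 (minus) and chr12:132687343-132687592 (minus).
FEN1: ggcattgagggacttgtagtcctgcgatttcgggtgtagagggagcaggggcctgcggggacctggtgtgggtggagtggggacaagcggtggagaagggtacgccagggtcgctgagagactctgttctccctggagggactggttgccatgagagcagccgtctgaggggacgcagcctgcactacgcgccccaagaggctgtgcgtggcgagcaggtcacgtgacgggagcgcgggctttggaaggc
PCNA: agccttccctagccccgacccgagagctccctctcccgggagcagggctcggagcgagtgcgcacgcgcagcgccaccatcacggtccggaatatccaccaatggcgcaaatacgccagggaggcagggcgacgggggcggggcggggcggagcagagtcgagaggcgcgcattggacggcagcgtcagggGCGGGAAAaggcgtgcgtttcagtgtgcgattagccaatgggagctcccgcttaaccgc
CDT1: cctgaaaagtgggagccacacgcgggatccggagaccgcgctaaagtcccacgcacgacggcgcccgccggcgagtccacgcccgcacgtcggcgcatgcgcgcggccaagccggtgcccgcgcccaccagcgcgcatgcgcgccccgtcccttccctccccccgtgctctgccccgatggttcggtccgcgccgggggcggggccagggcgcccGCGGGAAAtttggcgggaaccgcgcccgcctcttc
ORC1: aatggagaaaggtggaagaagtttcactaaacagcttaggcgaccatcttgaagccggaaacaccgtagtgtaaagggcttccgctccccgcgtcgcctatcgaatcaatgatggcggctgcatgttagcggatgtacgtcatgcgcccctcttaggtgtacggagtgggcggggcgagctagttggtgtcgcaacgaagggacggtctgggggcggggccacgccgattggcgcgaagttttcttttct
MCM6: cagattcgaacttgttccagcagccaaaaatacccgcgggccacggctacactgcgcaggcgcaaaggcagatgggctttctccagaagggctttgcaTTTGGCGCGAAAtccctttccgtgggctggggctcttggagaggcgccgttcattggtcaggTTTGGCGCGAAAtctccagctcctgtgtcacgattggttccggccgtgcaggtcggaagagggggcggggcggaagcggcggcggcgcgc
POLE: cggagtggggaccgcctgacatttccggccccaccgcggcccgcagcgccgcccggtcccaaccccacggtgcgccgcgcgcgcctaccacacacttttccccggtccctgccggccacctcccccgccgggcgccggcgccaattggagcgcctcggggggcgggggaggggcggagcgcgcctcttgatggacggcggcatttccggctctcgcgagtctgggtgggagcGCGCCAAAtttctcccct

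The letters searched were TTTGGCGC, TTTCGCGC, TTTCCCGC and TTTGCCGC on both strands, in windows from 250 bases before to 50 after the first listed start. Of the 41 genes 35 had a window, all but MCM4, MCM5, GINS4, CCNE2, RPA2 and RPA3, and 17 of the 35 (48.6%) held at least 1 match, against 3.33% of 27305 windows of as many genes. Among the other replication genes and the mitosis genes described below, 26.3% and 8% of the windows held a match. PCNA held GCGGGAAA, which is TTTCCCGC read on the other strand, from base -59 from the start, CDT1 the same letters from base -35, and POLE GCGCCAAA from base -18. MCM6 held 2 runs, from bases -152 and -90, in each of which a match on one strand overlapped a match on the other. FEN1 and ORC1 held no exact match, so genes that rose in LN18 with EGCG+HC stood in both classes of this search. ORC1 held attggcgc, which departs from TTTGGCGC in the first letter only. Near matches were not counted, so a gene without a match may still hold an E2F-type site. The CHR letters of mitotic genes (TTTGAA and TTCGAA, both strands) were in 5.71% of the windows of the 41 genes, 16.6% of all windows and 76% of those of 30 mitosis genes. The CHR letters were in 7.89% of the windows of the other replication genes. A CCAAT box (either strand) stood in 57.1% of the windows of the 41 genes, against 35.7% of all windows. The box was in 52.6% of the windows of the other replication genes and 76% of those of the mitosis genes. It therefore did not set the 41 genes apart from these lists. A match is a run of letters and was not tested as a binding site.

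Many of the replication genes fell after HC or EGCG+HC in both lines, among them MCM6 in all 4 of these comparisons, while after EGCG alone members passed the threshold in LN18 and none did in 1321N1. A gene counted as higher or lower where limma gave a p, adjusted by Benjamini-Hochberg over all genes tested, no greater than 0.05 and the fold change on the scale of log2(RPKM + 1) was at least 1.5, which is 0.585 in log2. In 1321N1, EGCG called 0 of the 41 higher, where 3.14% of all genes were, and 0 lower, where 1.83% were. HC called 4 higher (18.8% of all genes) and 23 lower (17.7%), and EGCG+HC called 0 higher (23.1%) and 25 lower (18%). In LN18, EGCG called 0 higher (9.11%) and 16 lower (9.7%), HC called 0 higher (9.48%) and 14 lower (2.26%), and EGCG+HC called 4 higher (24.1%) and 22 lower (22.2%). The 3 comparisons of a line share its control libraries. In every comparison with control, the libraries of each called member lay wholly to one side of the controls. The threshold itself favours such a separation, so this adds no support to the calls. Its share among all called genes was not counted. In bulk RNA, a change in the share of cells in S phase and a change in these RNAs per cell cannot be told apart. By flow cytometry, the paper reports a larger share of cells in S phase with EGCG+HC than in vehicle controls, in both lines. How that share bears on the RNA levels was not tested.

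Markers of cell types moved with some of the same treatments. VIM fell with HC (-1.44 ± 0.04 in log2, SE, from 982 to 362 RPKM) and EGCG+HC (-0.83 ± 0.04) in 1321N1 and with HC (-0.60 ± 0.04) and EGCG+HC (-0.64 ± 0.03) in LN18. CD44 fell with EGCG+HC in LN18 (-0.92 ± 0.04). CD68, a lysosomal protein used as a macrophage marker, rose with EGCG in LN18 from 18.3 to 41.8 RPKM (1.15 ± 0.06), with the other blood markers below 1 RPKM. Their part in the results on replication genes was not tested.

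Over the 41 genes the median log2 change in 1321N1 was 0.11 for EGCG, -0.65 for HC and -0.70 for EGCG+HC, beside medians over all genes tested of 0.10, -0.01 and -0.01. In LN18 it was -0.44, -0.36 and -0.74, beside 0.03, 0.10 and 0.01. The absence of calls with EGCG in 1321N1 was set by the limit on the fold change. There 22 members had an unadjusted p under 0.05, beside 51.6% of all genes. An adjusted p of at most 0.05 was reached by 14, of which 13 were above control, beside 29.9% of all genes, and 1 below, beside 10.2%, so the share above was near that of all genes. Without 1321N1 control library 2, RPA3 passed with EGCG, 0.59 ± 0.09 above control in log2 (SE, adjusted p = 0.0103), and without both of 1321N1 EGCG libraries 2 and 3 the count was 0. After quantile normalization the share of lower calls over all genes moved from 36.9 to 53.3% with EGCG in 1321N1 and from 19.2 to 37.5% with HC in LN18.

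**Figure D1:**
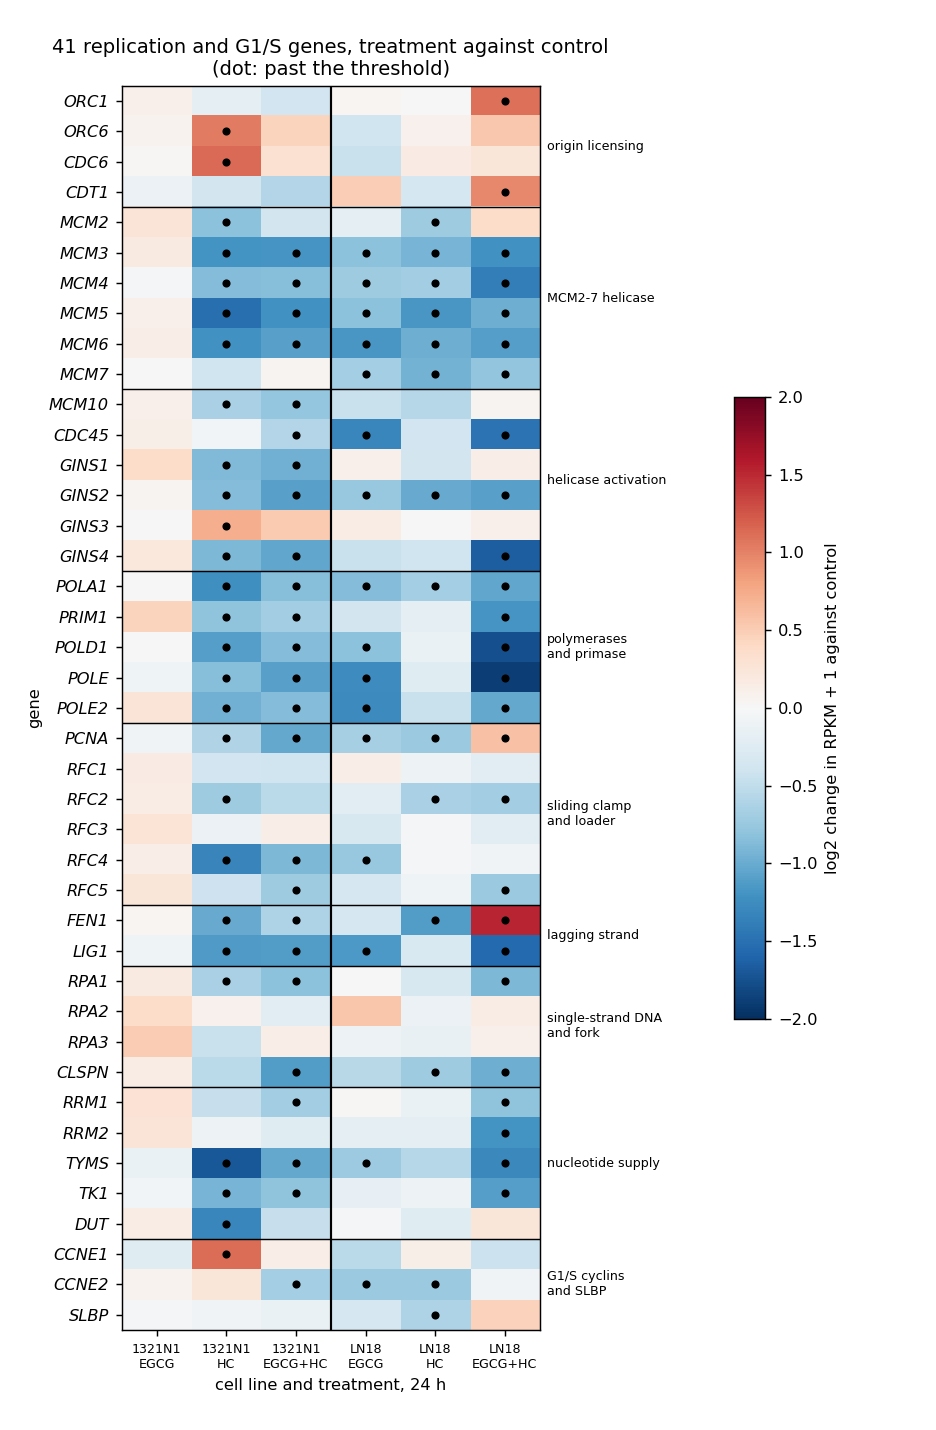
Log2 change in RPKM + 1 against control for the 41 genes (rows, grouped by role) in the 6 treated groups (columns), on a colour scale from -2 to 2, with a dot where the gene passed the threshold. The 1321N1 EGCG column holds no dot, the MCM3 to MCM6 and polymerase rows are blue in the other columns, and the LN18 EGCG+HC column has dotted red cells for ORC1, CDT1, PCNA and FEN1.

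Of the 4 licensing factors, none was called lower in any comparison with control and each was called higher in 1. ORC1, the largest ORC subunit (GRCh37 chr1:52838501-52870095), measured 18, 17.1 and 18.3 RPKM in LN18 controls. It was 17.9, 17.8 and 19.4 RPKM with EGCG and 18, 17.7 and 17.9 RPKM with HC, and 38.8, 39.4 and 39.4 RPKM with EGCG+HC. EGCG and HC alone overlapped the controls, while all 3 EGCG+HC libraries were above every other LN18 library, a rise of 1.10 ± 0.03 in log2 (SE, adjusted p = 1.45e-07). In 1321N1 the controls had 22.1, 22 and 20.7 RPKM and the EGCG+HC libraries 16.3, 15.9 and 16.8 RPKM. They lay below the controls without passing the threshold (-0.38 ± 0.04 in log2, SE).

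CDT1, which brings the MCM rings to ORC and is destroyed as S phase begins (GRCh37 chr16:88870197-88875666), had 17.7, 16.1 and 17.6 RPKM in LN18 controls. Its libraries held 24.6, 25.4 and 23.5 RPKM with EGCG, 14.3, 13.1 and 12.1 RPKM with HC and 35.2, 33.1 and 33.9 RPKM with EGCG+HC. EGCG alone was above and HC alone below the controls without passing the threshold (0.49 and -0.36), and EGCG+HC rose above all of them, by 0.95 ± 0.05 in log2 (SE, adjusted p = 9.89e-07). In 1321N1 the controls had 13.9, 11.8 and 11.6 RPKM and the EGCG+HC libraries 8.39, 7.86 and 7.69 RPKM, a log2 change of -0.58 ± 0.07 that fell just short of the limit.

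CDC6, the ATPase that joins ORC to close the MCM ring around DNA, rose with HC in 1321N1. Controls had 24.6, 29 and 28.1 RPKM, HC libraries 58.5, 62.1 and 60.8 RPKM and EGCG+HC libraries 33.5, 32.3 and 35.1 RPKM. The HC libraries stood above all others of the line, a rise of 1.13 ± 0.06 in log2 (adjusted p = 3.11e-06), and EGCG+HC was above the controls by 0.30, short of the threshold. In LN18 its log2 changes were -0.45 after EGCG, 0.16 after HC and 0.24 after EGCG+HC, none of them called. ORC6, a small ORC subunit, followed in 1321N1, from 8.09, 8.68 and 9.27 RPKM in controls to 18.7, 18.9 and 18.7 RPKM with HC (1.03 ± 0.05 in log2, adjusted p = 1.69e-06). With EGCG+HC it had 12.2, 11.3 and 13 RPKM, between the other groups.

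The subunits of the MCM ring were lower in most groups. Of the 6, 5 were lower with HC and 4 with EGCG+HC in 1321N1, and in LN18 EGCG called 5 lower, HC 6 and EGCG+HC 5. MCM5 measured 24.5, 22.5 and 22.9 RPKM in 1321N1 controls, 7.41, 7.82 and 7.4 RPKM with HC and 9.65, 9.48 and 9.23 RPKM with EGCG+HC. The treated libraries were all under 10 RPKM, and both falls were called, by -1.51 ± 0.05 (adjusted p = 2.07e-07) and -1.22 ± 0.04 (adjusted p = 3.49e-07) in log2. In LN18 the same gene went from 31.2, 29.5 and 31.5 RPKM to 17, 17.3 and 16.5 with EGCG, 14, 13.2 and 12.2 with HC and 15.9, 14.8 and 14.7 with EGCG+HC. All 9 treated libraries were below the controls, and EGCG+HC was no lower than HC alone.

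For MCM6 the log2 changes were -1.20 with HC and -1.09 with EGCG+HC in 1321N1 and -1.16, -0.98 and -1.10 with EGCG, HC and EGCG+HC in LN18. MCM4 fell in LN18 with EGCG (-0.71), with HC (-0.69) and with both (-1.39 ± 0.03), and EGCG+HC was also lower than HC alone (-0.70 ± 0.03). MCM7, whose exons overlap those of AP4M1 on the other strand over 392 bases, was called in LN18 only (-0.69, -0.95 and -0.79). The RPKM were not counted by strand as far as the sources used here say, so reads of overlapping genes may be mixed.

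MCM2 was the exception in the ring. In LN18 it had 51, 49 and 51.7 RPKM in controls, 43.1, 44.1 and 44.4 with EGCG, 32, 29.7 and 30.2 with HC and 67.4, 63.4 and 65 with EGCG+HC. HC was lowest and was called (-0.70 ± 0.04), while EGCG+HC was above every control library by a difference under the limit (0.36 ± 0.03). In 1321N1 it had 53.3, 50.1 and 47.6 RPKM in controls and 28.8, 28.7 and 27 with HC, a fall of -0.82 ± 0.05 in log2, and 38.3, 38.6 and 39.5 with EGCG+HC, where it did not pass (-0.37).

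Among the factors that start the helicase, GINS2 was lower in all 5 comparisons with control in which any member was called. It had 14.1, 14.6 and 13.9 RPKM in 1321N1 controls, 7.3, 7.7 and 6.98 with HC and 5.88, 6.14 and 6.37 with EGCG+HC, falls of -0.87 ± 0.05 and -1.09 ± 0.04 in log2. In LN18 the controls had 27.9, 27.3 and 26.4 RPKM, and it fell after EGCG (-0.75), HC (-1.0) and EGCG+HC (-1.08). CDC45, the partner of GINS in the active helicase, split the treatments. In LN18 it had 29.5, 28.4 and 28.1 RPKM in controls, 11.6, 10.6 and 10.9 with EGCG, 21.2, 23.2 and 20.9 with HC and 9.66, 9.64 and 9.68 with EGCG+HC. EGCG (-1.30 ± 0.04, adjusted p = 1.25e-06) and EGCG+HC (-1.48 ± 0.03, adjusted p = 4.48e-08) were called and HC was not (-0.38).

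In 1321N1 CDC45 was called with EGCG+HC alone (-0.59 ± 0.05), close to the limit, and lost that call when any 1 of 3 libraries (1321N1 control 1, EGCG+HC 1 or EGCG+HC 2) was left out, at log2 changes of -0.58, -0.57 and -0.56. Among the factors that start the helicase, GINS4 fell furthest with EGCG+HC in LN18. It went from 4.68, 5.01 and 5.58 RPKM in controls to 1.11, 0.858 and 0.846 RPKM (-1.65 ± 0.08 in log2), the lowest level of any member and about 90.2 reads per library. GINS3 went the other way in 1321N1 with HC, from 5.39, 5.46 and 5.4 to 9.45, 9.77 and 9.67 RPKM (0.73 ± 0.04). MCM10, which helps to open the helicase, was called in 1321N1 only, with HC (-0.65) and EGCG+HC (-0.77).

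The polymerases and the primase fell as a block with both agents. All 5 genes were lower with HC and with EGCG+HC in 1321N1 and with EGCG+HC in LN18, 4 of 5 with EGCG in LN18 and 1 of 5 with HC in LN18. POLE, the catalytic subunit of the leading-strand polymerase epsilon, had 10.9, 10.9 and 11.4 RPKM in LN18 controls. It had 4.04, 4.03 and 4.15 RPKM with EGCG, 9.89, 8.52 and 9.28 with HC and 2.38, 2.12 and 2.29 with EGCG+HC. The HC libraries lay just under the controls and the others far under. The falls were -1.25 ± 0.03 with EGCG (adjusted p = 1.04e-06) and -1.89 ± 0.05 with EGCG+HC (adjusted p = 7.68e-08). The last was the largest fall of any member in that comparison on the scale of log2(RPKM + 1), which understates the change of low genes. In mean RPKM GINS4 fell by a larger factor there, from 5.09 to 0.938, against 11.1 to 2.26 for POLE.

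In 1321N1 POLE went from 7.81, 7.65 and 7.59 RPKM in controls to 4.01, 3.73 and 3.71 with HC and 3.02, 3.0 and 3.21 with EGCG+HC (-0.85 and -1.09 in log2). POLD1, the catalytic subunit of the lagging-strand polymerase delta, had 16.8, 14.2 and 15.8 RPKM in LN18 controls and 4.19, 3.41 and 4.07 with EGCG+HC (-1.76 ± 0.08), while with HC alone it overlapped the controls at 14.6, 14.5 and 13 RPKM. Its exons overlap another annotated gene on the same strand over 426 bases. POLA1, of the polymerase that lays the first DNA on the primer, was the one member of this block called with HC in LN18 (-0.68 ± 0.05). It fell with the other treatments of that line too (-0.86 with EGCG, -1.05 with EGCG+HC). In 1321N1 it went from 15.9, 17.4 and 17.4 RPKM to 6.53, 6.82 and 6.63 with HC (-1.23 ± 0.05) and 9.23, 8.61 and 8.93 with EGCG+HC (-0.85 ± 0.05).

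PCNA, the sliding clamp that holds the polymerases to DNA (GRCh37 chr20:5095599-5107272), was called in opposite directions in the lines with EGCG+HC. In 1321N1 the controls had 141, 152 and 148 RPKM, EGCG 139, 143 and 139.9, HC 94.4, 100.1 and 95 and EGCG+HC 67.5, 73.4 and 73.5 RPKM. EGCG overlapped the controls, HC was below them (-0.60 ± 0.04) and EGCG+HC lower still (-1.03 ± 0.05, adjusted p = 1.1e-06). In LN18 the controls had 207, 216 and 216 RPKM, EGCG 127, 133 and 140.0, HC 118, 133 and 129 and EGCG+HC 321, 322 and 322 RPKM. Each agent alone took the gene below the controls (-0.67 ± 0.04 and -0.75 ± 0.05) and both together above them (0.59 ± 0.03, adjusted p = 6.95e-07). The rise lay at the limit. It dropped below it after quantile normalization (0.28), after rescaling without mitochondrial genes (0.49) and without LN18 control library 1 (0.57), and the HC call in 1321N1 was lost after quantile normalization (-0.54) and without 1321N1 control library 2 (-0.58). The level may include reads of 3 pseudogene copies by name.

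Of the 5 subunits of the clamp loader, RFC1 and RFC3 were called in no comparison with control. RFC3 had 17.2, 18.7 and 18.3 RPKM in 1321N1 controls and 19.9, 19.1 and 20.8 with EGCG+HC, and 27.7, 30.8 and 29.2 in LN18 controls and 24.2, 24.8 and 26 with EGCG+HC, log2 differences of 0.14 ± 0.05 and -0.21 ± 0.05. RFC4 fell most with HC in 1321N1, from 25.1, 27.8 and 28 to 9.97, 10.2 and 10.3 RPKM (-1.32 ± 0.05, adjusted p = 4.7e-07), and was also lower there with EGCG+HC (-0.90) and in LN18 with EGCG (-0.76). In LN18 it overlapped the controls with HC, at -0.04. RFC2 fell with HC in both lines (-0.71 in 1321N1 and -0.64 in LN18) and RFC5 with EGCG+HC in both (-0.71 and -0.74).

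FEN1, the nuclease that trims the flaps between Okazaki fragments (GRCh37 chr11:61560383-61564710), gave the largest rise of the list. LN18 controls had 29.7, 31.8 and 33.2 RPKM, EGCG 24.6, 24.5 and 25.3, HC 15.3, 15.3 and 11.8 and EGCG+HC 92.8, 91.9 and 92.9 RPKM. EGCG was below the controls without passing (-0.34 ± 0.04), HC fell by more (-1.11 ± 0.10), and all 3 EGCG+HC libraries were above every other library of the line, a rise of 1.52 ± 0.04 in log2 (adjusted p = 9.79e-08). In 1321N1 the controls had 38.5, 40.9 and 38.4 RPKM, EGCG 39, 41.8 and 40.5, HC 20.3, 19 and 17.6 and EGCG+HC 25.5, 24.7 and 25.2 RPKM. HC was lowest (-1.01 ± 0.06) and EGCG+HC was also called lower (-0.62 ± 0.04, adjusted p = 3.54e-06). The fold change of FEN1 in LN18 with EGCG+HC kept its call under every alternative run. Its exons share 49 bases with FADS2 on the same strand.

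LIG1, the ligase that seals the same fragments, did not follow FEN1. It had 8.82, 8.92 and 9.11 RPKM in LN18 controls and 2.24, 2.44 and 2.44 RPKM with EGCG+HC, a fall of -1.56 ± 0.04 in log2 (adjusted p = 1.15e-07). In 1321N1 it went from 10.7, 9.79 and 9.99 to 4.12, 4.21 and 4.14 RPKM (-1.11 ± 0.04). EGCG alone took it down in LN18 (-1.15) and HC alone in 1321N1 (-1.13).

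**Figure D2:**
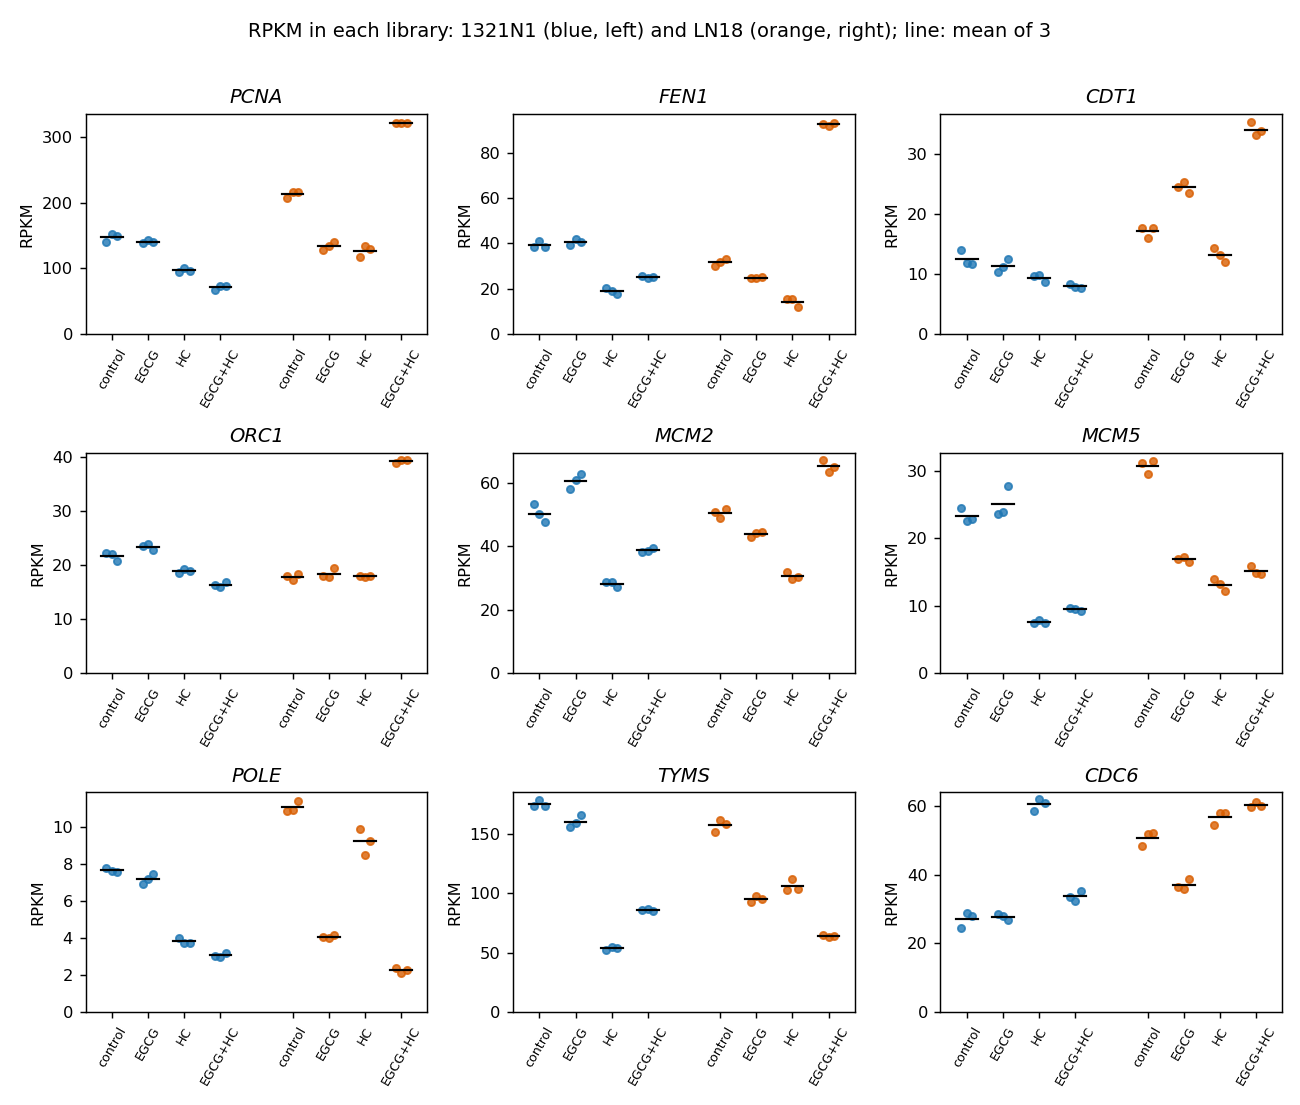
RPKM (vertical axes, each from 0) of 9 genes in every library by treatment, 1321N1 in blue at left and LN18 in orange at right, with a bar at the mean of 3 libraries. PCNA, FEN1, CDT1, ORC1 and MCM2 have their highest LN18 libraries with EGCG+HC, while MCM5, POLE and TYMS have their highest in the controls.

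RPA, the trimer that coats single-stranded DNA, did not move as one. RPA1 fell with HC in 1321N1 (-0.65) and with EGCG+HC in both lines (-0.81 ± 0.03 in 1321N1 and -0.90 ± 0.03 in LN18). RPA2 and RPA3 were called in no comparison with control. RPA3 had 8.86, 10.4 and 8.29 RPKM in 1321N1 controls and 10.0, 10.2 and 9.96 with EGCG+HC, and in LN18 18.2, 18.5 and 16.6 and 19.1, 19.8 and 18.8. The groups overlapped in 1321N1 (0.13 ± 0.07) and lay side by side in LN18 (0.11 ± 0.05). CLSPN, an adaptor of the fork checkpoint, went from 17.6, 19.5 and 18.6 RPKM in 1321N1 controls to 7.52, 8.08 and 8.55 with EGCG+HC (-1.11 ± 0.06) and in LN18 from 23.5, 26.2 and 24.4 to 11.8, 12.3 and 12.2 (-0.97 ± 0.05).

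The enzymes of nucleotide supply were led by TYMS, thymidylate synthase. It had 173, 178 and 174 RPKM in 1321N1 controls, 52.2, 54.6 and 53.5 with HC and 86, 86.7 and 84.7 with EGCG+HC. HC gave the largest fall of any member in that line (-1.69 ± 0.03, adjusted p = 3.38e-08), and EGCG+HC stood between HC and the controls (-1.02 ± 0.03). In LN18 the order was another, with 152, 161 and 158 RPKM in controls, 92.2, 97.3 and 95.3 with EGCG, 103, 112 and 103 with HC and 64.7, 63 and 63.7 with EGCG+HC. EGCG+HC was lowest (-1.28 ± 0.03), EGCG was called (-0.72) and HC was just short (-0.56). TYMS overlaps ENOSF1 on the other strand over 967 bases.

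RRM2, the regulated subunit of ribonucleotide reductase, changed with EGCG+HC in LN18 only. It had 70.0, 77.8 and 74.7 RPKM in LN18 controls, 65.1, 63.3 and 65.4 with EGCG, 65.9, 66.1 and 64.9 with HC and 31.5, 32.7 and 31.3 with EGCG+HC, a fall of -1.19 ± 0.04 in log2 (adjusted p = 2.91e-07). In 1321N1 controls it had 59.6, 63.5 and 62.7 RPKM and with EGCG+HC 52.8, 51.7 and 52.2, a difference of -0.24 ± 0.03 that did not pass. Its partner RRM1 fell with EGCG+HC in both lines (-0.69 and -0.81), as did thymidine kinase TK1 (-0.80 and -1.09). DUT, which clears dUTP, was called with HC in 1321N1 alone (-1.31 ± 0.05), and 8 pseudogenes carry its name. Pseudogenes are also named after FEN1, TYMS, RRM2, RPA2, RPA3, ORC1, RFC3 and RFC5, and the levels of these genes are uncertain to that extent.

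The E cyclins, which drive entry into S phase with CDK2, parted from each other. CCNE1 had 3.21, 2.89 and 3.2 RPKM in 1321N1 controls, 7.38, 8.51 and 7.74 with HC and 3.33, 3.25 and 3.89 with EGCG+HC. It rose with HC by 1.11 ± 0.06 in log2 (adjusted p = 3.47e-06) and EGCG+HC stood near the controls (0.13). In LN18 it had 3.25, 3.9 and 3.75 RPKM in controls and 1.99, 2.67 and 2.67 with EGCG+HC, not called (-0.43 ± 0.10). CCNE2 had 9.07, 10.2 and 9.28 RPKM in 1321N1 controls, 11.2, 11.4 and 11.7 with HC and 5.28, 5.11 and 6.27 with EGCG+HC, the last called lower (-0.69 ± 0.08). In LN18 it fell with EGCG (-0.74) and HC (-0.74) and overlapped the controls with EGCG+HC (7.37, 8.14 and 7.5 against 8.12, 8.2 and 7.85 RPKM). It overlaps INTS8 on the other strand over 1629 bases. SLBP, the histone mRNA binding protein of S phase, fell with HC in LN18 (-0.61), a call lost after quantile normalization (-0.54) and without LN18 HC library 1 (-0.57).

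Set side by side, the lines shared most of the falls with EGCG+HC, and these 2 comparisons share no library. Of the 41 genes 19 were lower in both lines, where 10.8% of 12274 genes tested in both were, and none was higher in both. PCNA and FEN1 were lower in 1321N1 and higher in LN18, 4.88% of the members beside 0.383% of all genes, and 11 members passed in neither line. With rescaling or quantile normalization PCNA left this class and FEN1 stayed. Falls were deeper in LN18 for POLE (-1.89 against -1.09), POLD1 (-1.76 against -0.86) and CDC45 (-1.48 against -0.59), with the test of each difference given next.

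**Figure D3:**
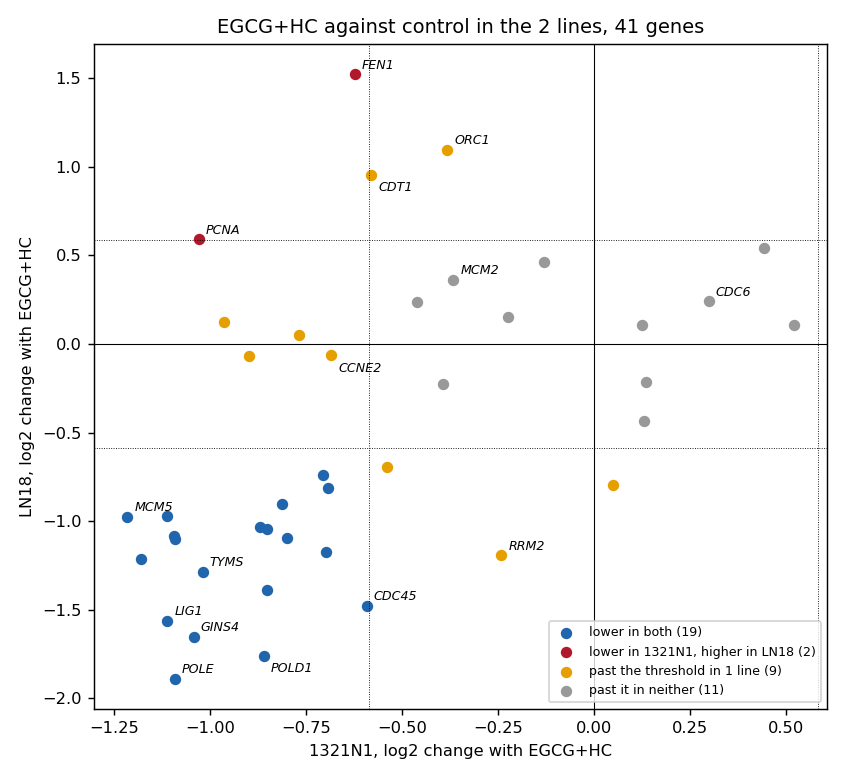
Log2 change with EGCG+HC against control in 1321N1 (horizontal axis) and LN18 (vertical axis) for the 41 genes, with dotted lines at the fold limit of 1.5. The 19 genes lower in both lines fill the lower left, and FEN1 and PCNA stand at the upper left in red.

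The difference between the lines in the response to a treatment was tested as LN18 minus 1321N1, on the 12 control and treated libraries of both lines. With EGCG+HC 11 members were higher in LN18 (15% of all genes) and 6 lower (18.2%). FEN1 (2.15 ± 0.05, SE), PCNA (1.62 ± 0.05), CDT1 (1.53 ± 0.09), ORC1 (1.48 ± 0.05) and GINS1 (1.09 ± 0.08) had the largest positive differences. RRM2 (-0.95 ± 0.06), POLD1 (-0.90 ± 0.13), CDC45 (-0.88 ± 0.06), MCM7 (-0.84 ± 0.04), POLE (-0.80 ± 0.06) and GINS4 (-0.61 ± 0.12) made up the negative ones. GINS4 lost its call when any 1 of 5 libraries was left out (1321N1 control 2 or EGCG+HC 1, LN18 control 3, EGCG+HC 2 or EGCG+HC 3), at -0.58 to -0.53. Among the positive ones, SLBP (0.59 ± 0.05) lost it without any 1 of 5 (1321N1 control 2 or 3, LN18 control 1 or 3 or EGCG+HC 3, at 0.57 to 0.58), after quantile normalization (0.51) and after rescaling (0.56), and CCNE2 (0.62 ± 0.09) without any 1 of 3 (1321N1 control 2 or EGCG+HC 2, or LN18 EGCG+HC 2, at 0.57 to 0.58). The HC dose and the serum differed, so line, dose and serum cannot be told apart here.

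EGCG was given at the same dose to both lines, though in media with different shares of serum, so line and serum cannot be told apart. With EGCG 1 member was higher in LN18 (5.59% of all genes) and 21 lower (11.4%). POLE2, a small subunit of polymerase epsilon, had 6.98, 6.57 and 7.52 RPKM in 1321N1 controls and 8.87, 8.37 and 8.39 with EGCG, and in LN18 12.3, 13.7 and 13.1 and 4.82, 4.9 and 4.77. It was not called in 1321N1 (0.25) and fell in LN18 (-1.27 ± 0.04), a difference of -1.52 ± 0.07 (adjusted p = 1.11e-07). CDC45 (-1.43 ± 0.07), MCM6 (-1.30 ± 0.05) and POLE (-1.16 ± 0.05) followed. CDT1 was the 1 member higher in LN18 (0.62 ± 0.11), a call lost without any 1 of 3 libraries (1321N1 control 1, 1321N1 EGCG 1 or LN18 control 2), at 0.54 to 0.57. The smallest of the 21 negative differences also rested on single libraries. TYMS (-0.59) lost its call without any 1 of 6 (1321N1 control 1 or 3 or EGCG 3, LN18 control 2 or 3 or EGCG 1, at -0.58 to -0.57). RPA3 (-0.60) lost it without any 1 of 6 (1321N1 control 1 or 3 or EGCG 2, LN18 control 1 or 2 or EGCG 2, at -0.58 to -0.53), and RFC3 (-0.59) without any 1 of 5 (1321N1 control 1, EGCG 1 or EGCG 2, LN18 control 2 or EGCG 2, at -0.58 to -0.55). GINS4 (-0.65) lost it without 1321N1 control 2 or EGCG 3 (-0.57 and -0.58) and PCNA (-0.61) without 1321N1 control 1 or LN18 EGCG 1 (-0.58 and -0.57). After quantile normalization GINS4 (-0.52), RFC3 (-0.55) and RPA3 (-0.52) did not pass. Without both of 1321N1 EGCG libraries 2 and 3, 20 members passed, and TYMS (-0.55) and RPA3 (-0.56) no longer did. Quantile normalization moved the share of lower calls over all genes from 67.1 to 54.5% in this comparison.

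With HC 8 members were higher in LN18 than in 1321N1 (19.6% of all genes) and 5 lower (12.6%). Both counts were near the shares of all genes, so they did not set the members apart. The 8 positive differences were led by RFC4 (1.28 ± 0.08), TYMS (1.13 ± 0.06) and DUT (1.07 ± 0.07), genes that fell in 1321N1. The 5 negative ones were CCNE1 (-0.99 ± 0.10), CCNE2 (-0.98 ± 0.07), CDC6 (-0.97 ± 0.08), ORC6 (-0.94 ± 0.07) and GINS3 (-0.72 ± 0.07). All but CCNE2 had been called higher with HC in 1321N1, and CCNE2 lay above the controls there without passing the threshold (0.24).

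EGCG on top of HC moved FEN1 and PCNA up in LN18 and the nucleotide enzymes DUT and TYMS up in 1321N1. With EGCG+HC against HC alone, 2 members were higher (12.2% of all genes) and 4 lower (7.23%) in 1321N1, and 8 higher (19.5%) and 13 lower (25.9%) in LN18. In LN18 both shares of members, and in 1321N1 the share lower, were near those of all genes. The share higher in 1321N1 was below that of all genes. In 1321N1 DUT (0.85 ± 0.04) and TYMS (0.67 ± 0.03) were higher, and CCNE1 (-0.98 ± 0.07), CCNE2 (-0.93 ± 0.07), CDC6 (-0.83 ± 0.04) and ORC6 (-0.59 ± 0.05) lower. ORC6 lost its call after rescaling without mitochondrial genes (-0.57) and without 1321N1 EGCG+HC library 2 (-0.54). In LN18 the 8 were FEN1 (2.64 ± 0.09), PCNA (1.34 ± 0.05), CDT1 (1.31 ± 0.06), ORC1 (1.09 ± 0.03), SLBP (1.08 ± 0.05), MCM2 (1.07 ± 0.04), CCNE2 (0.67 ± 0.06) and MCM10 (0.62 ± 0.04). The 13 lower ones were led by POLE (-1.65 ± 0.07), POLD1 (-1.62 ± 0.08), LIG1 (-1.26 ± 0.06) and GINS4 (-1.25 ± 0.10).

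Whether the pair of agents did more or less than the sum of each alone was tested on the 12 libraries of a line, as the log2 change with EGCG+HC minus those with EGCG and with HC. In LN18 15 members lay above the sum (14.5% of all genes) and 7 below it (23.1%), with a median over members of 0.36 beside -0.13 over all genes. FEN1 lay 2.97 ± 0.11 above the sum (SE, adjusted p = 1.77e-09) and PCNA 2.01 ± 0.07 above it (adjusted p = 7.75e-10). CCNE2 (1.41 ± 0.08), SLBP (1.41 ± 0.05) and MCM2 (1.27 ± 0.05) came next. For MCM5 (1.02 ± 0.07) and MCM6 (1.04 ± 0.04) both single treatments and the pair were lower than control, and the pair was less low than the sum.

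The 7 members below the sum in LN18 were RRM2 (-0.82 ± 0.05), TK1 (-0.82 ± 0.08), GINS4 (-0.81 ± 0.12), POLD1 (-0.80 ± 0.10), RRM1 (-0.71 ± 0.04), PRIM1 (-0.61 ± 0.07) and RPA1 (-0.60 ± 0.04), with RRM1, RRM2 and TK1 of nucleotide supply among them. In 1321N1 2 members lay above the sum (10.3% of all genes), TYMS (0.80 ± 0.04) and DUT (0.70 ± 0.06), and 7 below it (12.8%), with a median of -0.16 beside -0.09 over all genes. These were CCNE2 (-0.99 ± 0.12), CDC6 (-0.86 ± 0.08), CCNE1 (-0.75 ± 0.11), CLSPN (-0.71 ± 0.07), RPA2 (-0.67 ± 0.07), ORC6 (-0.67 ± 0.08) and CDC45 (-0.65 ± 0.09). PRIM1 lost its call in LN18 without LN18 control library 3 (-0.57). CDC45 and ORC6 lost their calls after quantile normalization (-0.55 and -0.58), and CDC45 also without both of 1321N1 EGCG libraries 2 and 3 (-0.57).

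**Figure D4:**
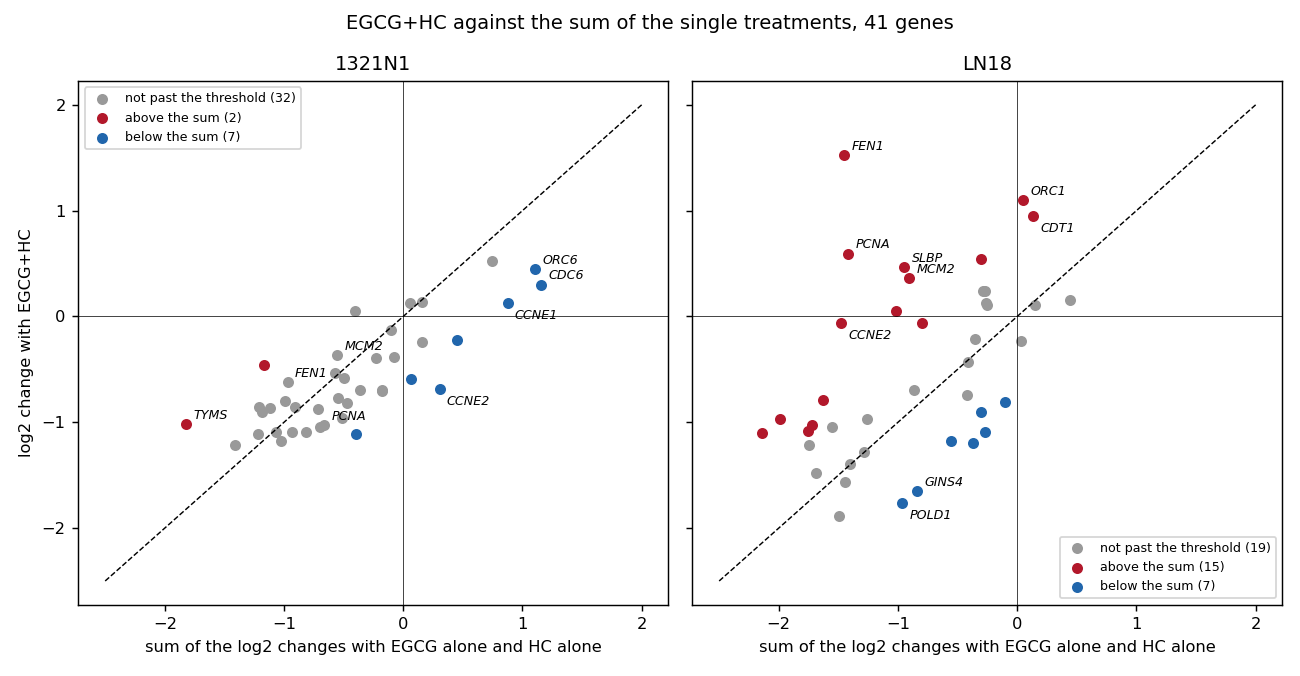
Log2 change with EGCG+HC (vertical axis) against the sum of the log2 changes with EGCG alone and HC alone (horizontal axis) for the 41 genes, 1321N1 at left and LN18 at right, with a dashed line where both are equal. In LN18 15 genes (red) lie above the line, with FEN1 and PCNA farthest from it, and in 1321N1 most genes lie near the line.

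The lines also differed before treatment, in these genes no more often than in others. Of the 41 genes 12 were higher in LN18 controls than in 1321N1 controls (21.9% of all genes) and 3 lower (20.7%). In either direction 15 of the 41 were called, a smaller share than the 5663 of 13293 genes tested. ORC6 had 34.9, 38.6 and 36.4 RPKM in LN18 controls and 8.09, 8.68 and 9.27 in 1321N1 controls (1.96 ± 0.06), and CDC45 29.5, 28.4 and 28.1 and 10.8, 10.7 and 10.3 (1.35 ± 0.04). The lower ones were MCM10 (-0.98 ± 0.05), POLA1 (-0.96 ± 0.05) and RFC4 (-0.68 ± 0.05). Control means ran from 3.10 RPKM (CCNE1) to 175 (TYMS) in 1321N1 and from 3.63 (CCNE1) to 213 (PCNA) in LN18. PRIM1 (0.60 ± 0.08) was at the limit and lost its call under both rescalings and without 1321N1 control library 1 or LN18 control library 2.

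Around the 41 genes stood other replication genes, the E2F and RB genes and the mitotic genes, in lists chosen by name. Of 46 tested replication genes outside the 41, EGCG+HC called 5 higher (23.1% of all genes) and 19 lower (18%) in 1321N1 (median -0.38). In LN18 it called 3 higher (24.1%) and 18 lower (22.2%), with a median of -0.44. CDKN1A, which inhibits cyclin kinases and does not copy DNA, was on this list. That gene was called higher in every comparison with control except EGCG in 1321N1. With HC alone the counts were 2 higher (18.8%) and 16 lower (17.7%) in 1321N1 and 2 (9.48%) and 1 (2.26%) in LN18. With EGCG alone they were 1 (3.14%) and 0 (1.83%) in 1321N1 and 1 (9.11%) and 13 (9.7%) in LN18. In 1321N1 the largest changes were those of CDKN1A, the p21 inhibitor of cyclin kinases, from 16.6 ± 1.08 to 93.8 ± 0.605 RPKM (mean ± SD, n = 3, 2.43 ± 0.05 in log2, SE), UHRF1, a chromatin factor of replication forks, from 40.1 ± 2.43 to 11.1 ± 0.623 RPKM (-1.77 ± 0.06), and CCNA2, the S phase cyclin, from 75.9 ± 3.18 to 22.2 ± 1.27 RPKM (-1.73 ± 0.05). In LN18 they were those of DNMT1, which copies DNA methylation, from 32.5 ± 0.867 to 7.03 ± 0.125 RPKM (-2.06 ± 0.03), CHTF18, of an alternative clamp loader, from 23.9 ± 0.823 to 5.05 ± 0.358 RPKM (-2.04 ± 0.05), and POLD4, a small subunit of polymerase delta, from 9.24 ± 1.88 to 1.69 ± 0.381 RPKM (-1.92 ± 0.15).

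Of the E2F and RB genes, 3 of 12 were higher (23.1% of all genes) and 4 lower (18%) with EGCG+HC in 1321N1. In LN18 4 of 11 were higher (24.1%) and 5 lower (22.2%). The share higher in 1321N1 was near that of all genes. E2F2, an activating E2F, fell in 1321N1 from 11.9 ± 0.172 to 5.78 ± 0.0259 RPKM (mean ± SD, n = 3, -0.93 ± 0.03 in log2, SE) and rose in LN18 from 2.8 ± 0.0607 to 8.66 ± 0.178 RPKM (1.35 ± 0.04). The repressor E2F6 rose in 1321N1 from 8.72 ± 0.207 to 21.9 ± 0.482 RPKM (1.24 ± 0.04), and TFDP1, the partner of E2F proteins, fell there from 81 ± 2.81 to 39.8 ± 0.999 RPKM (-1.01 ± 0.04). In LN18 E2F4 fell from 50.7 ± 1.74 to 21.1 ± 0.912 RPKM (-1.23 ± 0.04) and RBL2, the p130 relative of RB, from 14.3 ± 0.347 to 5.57 ± 0.138 RPKM (-1.22 ± 0.04).

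Mitotic genes, which are transcribed after replication, moved one way with EGCG+HC. Of 30, 27 were lower in 1321N1 (18% of all genes) and 28 in LN18 (22.2%), with 0 higher in either (23.1% and 24.1%). With HC alone 29 were lower in 1321N1 (17.7%) and 11 in LN18 (2.26%). Their median log2 change with EGCG+HC was -1.18 in 1321N1 and -1.64 in LN18, beside -0.70 and -0.74 for the 41 genes. KIF20A, a kinesin of cytokinesis, fell from 92.5 ± 1.88 to 13.8 ± 0.405 RPKM in 1321N1 (mean ± SD, n = 3, -2.66 ± 0.03 in log2, SE), the cyclin CCNF from 18.2 ± 0.945 to 2.88 ± 0.169 RPKM (-2.30 ± 0.05) and the kinase PLK1 from 61.4 ± 3.2 to 14.1 ± 0.463 RPKM (-2.04 ± 0.05). In LN18 the phosphatase CDC25B fell from 50.8 ± 3.51 to 6.42 ± 0.0649 RPKM (-2.80 ± 0.05), the spindle protein DLGAP5 from 22.8 ± 0.401 to 2.67 ± 0.0864 RPKM (-2.70 ± 0.04) and the kinetochore motor CENPE from 10.8 ± 0.532 to 0.951 ± 0.0756 RPKM (-2.60 ± 0.05). Against the sum of the single treatments, 18 of the 30 lay above (10.3% of all genes) and 0 below (12.8%) in 1321N1. In LN18 0 lay above (14.5%) and 25 below (23.1%), while 15 of the 41 replication genes lay above there.

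Members with and without the E2F letters were found among the called genes. With EGCG in LN18, 10 of the 13 lower members that had a window held the letters, and with HC in LN18 8 of 11. With EGCG+HC it was 10 of 19 lower and 2 of 4 higher members in LN18 and 11 of 21 lower members in 1321N1, and with HC in 1321N1 11 of 20 lower and 2 of 4 higher. Among members not called, the counts in LN18 were 7 of 22 with EGCG, 9 of 24 with HC and 5 of 12 with EGCG+HC. In 1321N1 they were 4 of 11 with HC and 6 of 14 with EGCG+HC. Of all members with a window, 17 of 35 held the letters. No test was run on these counts. The share of summed RPKM in mitochondrial genes, which enters the scale of every value, was 10.9 to 12% in 1321N1 controls and 7.1 to 7.97% with EGCG+HC, and 5.96 to 6.53% in LN18 controls and 8.82 to 9.27% with EGCG+HC. Rescaling without those genes ended 6 of the 233 calls of members over the 14 comparisons.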

How the data were processed

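Poly(A)-selected libraries (TruSeq, paired-end reads on a HiSeq 2500) were used, 24 in all. The authors aligned the reads to GRCh37 (hg19) and deposited expression per gene as RPKM from CLC Genomics Workbench, 1 value a library, and FastQC is named in the submitters' processing notes. RPKM divides reads by gene length and by the total of the library, so a value is relative to all other RNA of that library. The annotation was not given in the sources used here, nor was the use of strand. Groups came from the sample titles and doses from the text of the study.

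On the scale of log2(RPKM + 1), limma 3.58.1 (R 4.3.3, moderated with an intensity trend) was run over genes listed in all sheets fitted with a mean of at least 1 RPKM. A log2 difference on this scale understates the change of low genes. A comparison of 2 groups used only their 6 libraries, the test against the sum of single treatments the 12 libraries of a line, and that of a difference between lines 12 libraries. All p-values were adjusted over every gene tested. The scripts were tested on simulated data. Other steps ran in Python 3.11.15 with numpy 2.4.6 and pandas 2.3.3.

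Gene positions came from GENCODE v44lift37 on GRCh37, and promoters from RefSeq on GRCh38.p14, where the first listed start of a gene was used. Depth was recovered from low values of genes with 1 exon, since 1 read is worth a fixed step. In 22 libraries 85.7 to 93.6% of the values used came out within 0.1 of a whole number of reads, and in 1321N1 EGCG libraries 2 and 3 64 and 69.7%. The genes named were members called in opposite directions in the lines with EGCG+HC, up to 3 rises and 3 falls for each comparison with control, 18 members chosen by role and, in each other list, up to 3 genes a line. Any further member named, such as MCM6, RRM1 or SLBP, was chosen after its values were seen. The members and lists were chosen with earlier results of these data known. The lists held 47 other replication genes, 13 E2F and RB genes, 30 mitosis genes and marker genes (glial, neuronal, blood, epithelial). CHTF8 and RBL1 were not analysed here. Alternatives were another pseudocount (0.1), no filter, a mean of at least 5 RPKM, quantile normalization, rescaling without mitochondrial genes, no fold limit, a replicate block, all libraries of a line in 1 fit, each library left out and, chosen after seeing the data, 1321N1 EGCG libraries 2 and 3 left out.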

Additional observations from a re-analysis of the deposited data

Results flagged for a closer look

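The response of a member to a treatment differed between the lines past the threshold in 52 cases, each by limma's test of the difference itself (log2 change in LN18 minus log2 change in 1321N1, 12 libraries). Of all genes, 5.59% were above 0 and 11.4% below with EGCG, 19.6% and 12.6% with HC, and 15% and 18.2% with EGCG+HC. With HC the shares of the members were near those of all genes. With EGCG, given at the same dose to both lines but in media with different shares of serum, the difference was above 0 for CDT1 (0.62). It was below 0 for POLE2 (-1.52), CDC45 (-1.43), MCM6 (-1.30), POLE (-1.16), LIG1 (-1.06), MCM3 (-1.0), MCM5 (-0.92), RFC4 (-0.90), POLA1 (-0.88), PRIM1 (-0.82), GINS2 (-0.81), POLD1 (-0.81), CCNE2 (-0.81), CLSPN (-0.70), MCM7 (-0.69), MCM4 (-0.67), GINS4 (-0.65), PCNA (-0.61), RPA3 (-0.60), RFC3 (-0.59) and TYMS (-0.59). With HC, given at different doses, the difference was above 0 for RFC4 (1.28), TYMS (1.13), DUT (1.07), POLD1 (0.97), LIG1 (0.83), TK1 (0.83), PRIM1 (0.62) and POLE (0.61). It was below 0 for CCNE1 (-0.99), CCNE2 (-0.98), CDC6 (-0.97), ORC6 (-0.94) and GINS3 (-0.72). With EGCG+HC, again with different HC doses, the difference was above 0 for FEN1 (2.15), PCNA (1.62), CDT1 (1.53), ORC1 (1.48), GINS1 (1.09), RFC4 (0.84), MCM10 (0.82), MCM2 (0.73), DUT (0.70), CCNE2 (0.62) and SLBP (0.59). It was below 0 for RRM2 (-0.95), POLD1 (-0.90), CDC45 (-0.88), MCM7 (-0.84), POLE (-0.80) and GINS4 (-0.61). 

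Among these, CDT1 was above 0 with EGCG and with EGCG+HC, FEN1 and ORC1 with EGCG+HC alone, and PCNA was below 0 with EGCG and above 0 with EGCG+HC. With HC, PRIM1 lost its call when any 1 of 4 libraries was left out (1321N1 control 2, control 3 or HC 3, or LN18 control 3, at 0.55 to 0.58) and POLE without LN18 HC library 1 (0.56) and after quantile normalization (0.55). Groups of 3 libraries were not searched for a library far from the others.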

How the results depend on the processing

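No member call changed direction under any alternative. Without the fold limit the counts of the 41 members past the threshold, each beside the share of all genes, were 14 with EGCG (40.1%), 38 with EGCG+HC (80.9%) and 31 with EGCG+HC against HC (70.4%) in 1321N1, and in LN18 35 after EGCG (71.3%), 29 after HC (55.4%) and 36 for EGCG+HC against HC (81.5%). They were 29 in 1321N1 (61.1%) and 35 in LN18 (72.8%) against the sum of the single treatments, 37 (54.3%), 31 (66.4%) and 31 (70.8%) for the difference between lines after EGCG, HC and EGCG+HC, and 36 (80.4%) between the controls. Leaving out 1 library moved the count with EGCG in 1321N1 within 0 to 1, and no other count by over 1.5 times.

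Quantile normalization ended 13 of the 233 calls and rescaling without mitochondrial genes 6, those of PCNA with EGCG+HC in LN18, ORC6 in 1321N1 and MCM10 and CCNE2 in LN18 with EGCG+HC against HC, SLBP in the difference between lines with EGCG+HC and PRIM1 between controls. Leaving out 1 library ended 54 of 1896 calls. The pseudocount of 0.1, the absence of a filter, the mean of at least 5 RPKM (223 of the 233 still tested) and the fit of all libraries of a line ended 0. The median of all genes moved with quantile normalization from 0.10 to -0.03 with HC in LN18 and from -0.13 to -0.03 against the sum in LN18, and with rescaling from -0.10 to -0.21 with EGCG+HC against HC in LN18. Over all genes the mean of at least 5 RPKM gave 0.525 to 0.658 times as many calls on fewer genes tested, no fold limit 1.8 to 8.07 times as many, and the pseudocount of 0.1 1084 against 659 with EGCG in 1321N1.

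Same-numbered libraries did not deviate together (correlations of -0.09 to 0.12 in 1321N1 and -0.11 to 0.11 in LN18, and 1 of 18 pairs over 0.1 in each line). With the replicate number as a block, all 218 calls of members in the 13 comparisons that allowed it were kept, with counts of 0, 27 and 25 in 1321N1 and 16, 14 and 26 in LN18 against control. The block was not run between the controls of the lines, which are different cells. The precision of low members is limited by depth, with about 90.2 reads per library for the lowest.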
